A study of Mus musculus with 4 samples.

Results

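The fibroblasts of mouse carotid arteries 3 days after wire injury were described gene by gene. A cell of the day 3 single-cell RNA-sequencing library was counted as a fibroblast when it had at least 500 genes, at least 1000 unique molecular identifiers (UMIs), at most 10% mitochondrial UMIs and at most 1 UMI of the leukocyte gene Ptprc, when Dcn, Lum, Dpt, Pdgfra, Serpinf1 and Mfap5 together made up at least 0.1% of its UMIs, and when the muscle genes Myh11, Acta2, Tagln and Myl9 together made up less than 0.5%. This rule found 160 fibroblasts among the 1196 cells that passed the filters on genes, UMIs and mitochondrial share, which was 13.4% of them (exact binomial 95% interval 11.5 to 15.4, counting error only), in a library of 1689 barcodes. The whole series held 6161 barcodes, of which 4343 passed. The same rule found 212 fibroblasts among 249 cells of day 0 (85.1%), 225 among 2018 cells of day 7 (11.1%) and 492 among 880 cells of day 14 (55.9%). These shares depend on how readily each cell type was released by the digestion, and no share of the intact vessel was measured.

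The study dissociated carotid arteries of male C57BL/6 mice before wire injury (day 0) and at 3, 7 and 14 days after it, to follow the cells of the vessel wall post-injury. The mice were injured at an age of 11 weeks, in the left artery. In this operation a wire passed through the artery strips the endothelium and stretches the wall. Each library came from a pool of arteries of several mice. Thrombosed vessels had been discarded and dead cells depleted before loading. There was 1 library per time point and the animals within a pool cannot be told apart. The day after injury and the library therefore cannot be told apart either, no p-value is given, and every interval covers counting error only.

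Adventitial fibroblasts lie in the outer coat of an artery, where they deposit fibrillar collagen, proteoglycans and elastic fibre proteins. They carry receptors for cytokines and growth factors, and in injured tissue they are a known source of chemokines, acute-phase proteins, proteases and wound matrix. Acute-phase genes such as Saa3 and Lcn2 respond to inflammatory cytokines. Some chemokines of the CCL group, such as Ccl2 and Ccl7, recruit monocytes, and those of the CXCL group with an ELR sequence recruit neutrophils.

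The 160 fibroblasts held 5546123 UMIs. Their depth was very uneven, with a lowest value of 1003 UMIs, a median of 24850, quartiles of 2117 and 56904 and a highest value of 202235. The 100 cells with at least 5000 UMIs held 97.9% of all UMIs, so that summed levels describe mainly these cells. The median fibroblast of days 0, 7 and 14 had 10106.5, 12129 and 18773.5 UMIs. All 6 marker genes were detected in 107 of the 160 cells, whereas 13 cells, all chosen by the same rule, had only 1 or 2 of them. The 3 cells closest to the marker threshold from above had 0.104%, 0.106% and 0.124% of their UMIs in the markers, and the 3 closest from below had 0.0993%, 0.0903% and 0.0900%. For the muscle genes the 3 closest cells inside had 0.425%, 0.397% and 0.340%, and those outside 0.948%, 1.19% and 2.12%.

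**Figure D1:**
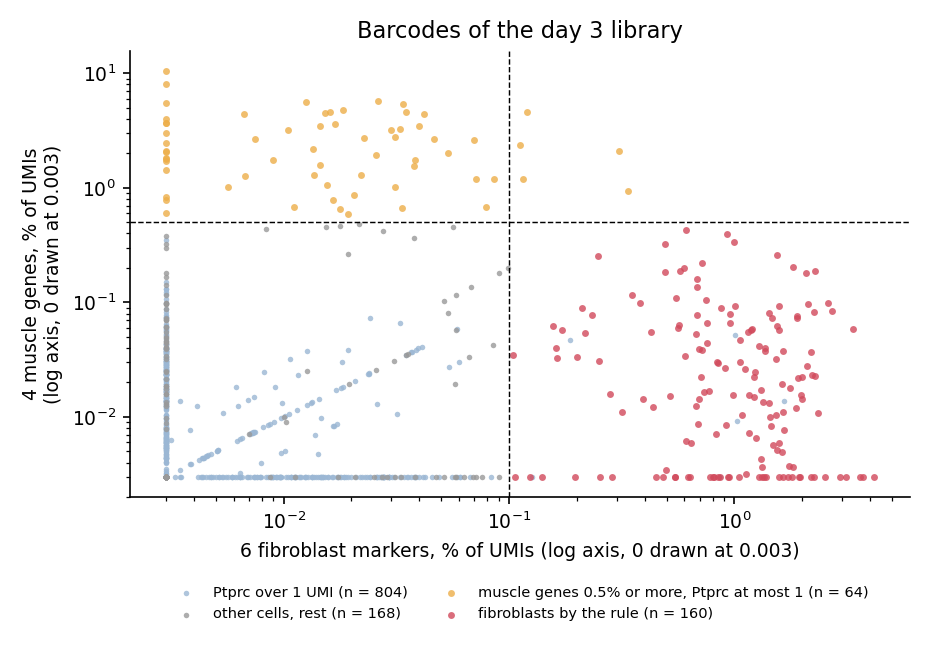
Each point is a barcode of the day 3 library that passed the filters, with the share of UMIs in the 6 fibroblast markers on the horizontal axis and in the 4 muscle genes on the vertical axis (% of UMIs, log axes, 0 drawn at 0.003). Dashed lines mark the thresholds of 0.1% and 0.5%, and the 160 fibroblasts lie to the right of the first and below the second.

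Libraries shared cell barcodes, and this bears on the comparison with day 0. The libraries of days 0 and 3 had 152 barcodes in common, 104 of them deeper in day 0 (by a median of 21.5-fold) and 48 deeper in day 3 (by a median of 109-fold). Days 7 and 14 had 64 barcodes in common, days 3 and 7 had 1, and the other pairs had 0. Of the day 3 fibroblasts 52 had a barcode that the day 0 library also held. The 17 of them that were deeper in day 0 had 1003 to 1321 UMIs at day 3 and were fibroblasts by the rule at day 0 as well, and they held 0.339% of the UMIs of the day 3 fibroblasts. The other 35 were deeper at day 3. Among the day 0 fibroblasts 6 were deeper in the day 3 library. Ratios of summed levels that moved by more than 1.5 times when the shallower copy of each shared barcode was left out are given beside the result. The 17 barcodes weigh more where every cell counts equally. Equal-weight values of Gsn, Pi16, Igfbp5 and some lists are therefore given with and without them.

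**Figure D2:**
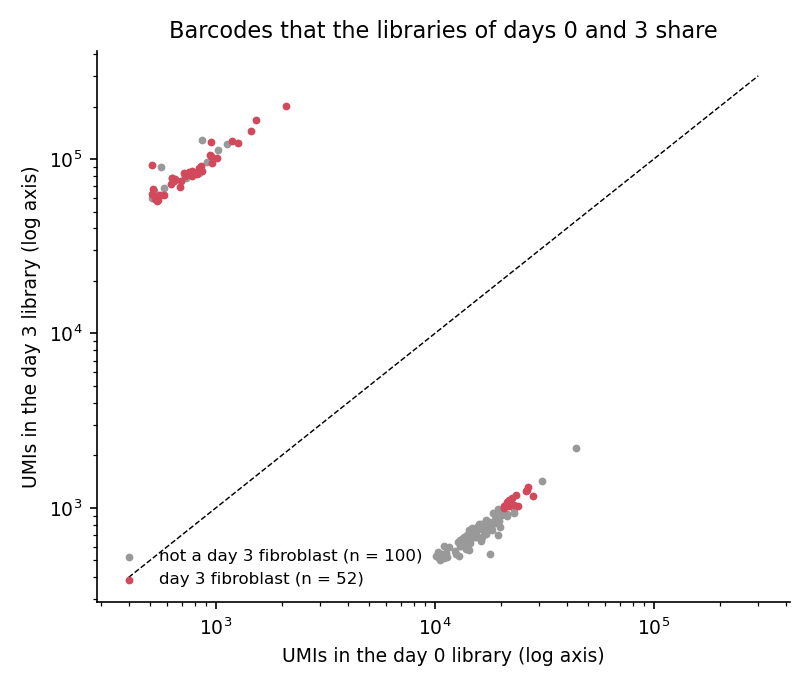
Each point is 1 of the 152 barcodes present in both the day 0 and the day 3 library, with its UMIs in day 0 on the horizontal and in day 3 on the vertical axis (log axes, dashed line of equality). The points form 2 separate clouds far from the line, 48 deeper in day 3 and 104 deeper in day 0, with many UMIs in one library and few in the other.

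Within the day 3 library the fibroblasts were compared with the 1036 other cells that passed, of which 804 had more than 1 UMI of Ptprc and 64 had the muscle genes at or above 0.5%. Because the cells were sorted on the same counts, this comparison describes them and supports nothing. Levels are UMIs of a gene per 1000000 UMIs summed over a group of cells (CPM). A gene was called past the fold when the log2 ratio of the levels, each with 10 CPM added, was at least 1 or at most -1. Of 12944 genes with at least 20 UMIs over both groups, 969 (7.49%) were past the fold in the direction of the fibroblasts and 1395 (10.8%) in the direction of the other cells. With all cells thinned to 1000 UMIs these counts were 856 and 1894.

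The rule genes themselves were 67.4-fold (Dcn), 52.4-fold (Lum), 45.6-fold (Pdgfra), 41.5-fold (Dpt), 40.4-fold (Serpinf1) and 19.5-fold (Mfap5) higher in the fibroblasts. Of 18 further fibroblast markers that the rule did not name, 18 were past the fold in the same direction, with a median log2 ratio of 2.92 against -0.05 over all genes. Among them, Col3a1 and Col1a1, chains of the fibrillar collagens, were 20.1-fold and 16.1-fold higher, and Mmp2, a gelatinase, was 26.4-fold higher. The collagen list had 12 of 13 genes higher, the complement list 10 of 11 and the resting adventitial fibroblast list, which holds genes of quiescent CD34-positive fibroblasts, 14 of 20 higher and 1 lower. Of the complement genes, Serping1, the C1 inhibitor, was at 710 CPM in the fibroblasts and 29.1 CPM in the other cells.

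Several further genes stood far higher in the fibroblasts than in the other cells, most of which had more than 1 UMI of Ptprc. Prg4, the boundary lubricant lubricin, was 61.1-fold higher, Cxcl5, a neutrophil chemokine, 56.2-fold, Mmp3 (stromelysin), a protease of proteoglycans and other matrix, 50.8-fold, Cthrc1, a secreted protein of activated fibroblasts, 47.0-fold, and Saa3, the inducible serum amyloid A, 36.3-fold (95% interval 34.2 to 38.6). By contrast, the monocyte chemokines Ccl2 and Ccl7 were only 1.59-fold and 2.00-fold higher, since the other cells had 598 and 376 CPM of them. Cxcl2 and Il1b were at 0.0392 and 0.0113 of the level in the other cells. The antigen presentation list had 7 of 10 genes past the fold in the direction of the other cells and 0 in that of the fibroblasts.

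Markers of leukocytes, endothelium and muscle were lower than in the other cells but not absent. The 10 monocyte and macrophage markers summed to 372 CPM in the fibroblasts and 9242 CPM in the other cells, with 0 of the 10 at 0, and 316 CPM of that sum were Plac8. The 8 neutrophil markers summed to 93.4 CPM against 2779 CPM, the 8 dendritic markers to 28.8 CPM against 11110 CPM with 4 of the 8 at 0, and the 8 T and NK cell markers to 4.33 CPM against 547 CPM with 6 of the 8 at 0. The 8 endothelial markers summed to 12.4 CPM against 65.8 CPM and the 8 smooth muscle markers, 4 of which the rule used, to 462 CPM against 4509 CPM. The 6 pericyte markers, in contrast, summed to 430 CPM in the fibroblasts and 89.8 CPM in the other cells, mainly Abcc9 (211 CPM) and Kcnj8 (153 CPM), with Rgs5 at 50.7 CPM, Notch3 at 1.08 CPM and Higd1b at 0. At days 0, 7 and 14 this sum was 610, 616 and 469 CPM in the fibroblasts. The 6 chondrocyte and bone markers summed to 74.1 CPM against 12.8 CPM, of which Comp made up 73.6 CPM. In the fibroblasts of days 0, 7 and 14 the monocyte and macrophage sum was 29.8, 311 and 195 CPM. The part of these transcripts in the differences between days was not tested.

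Free RNA in the droplets was gauged in the Ptprc-positive cells after every cell had been thinned to 1000 UMIs (before thinning, the median was 24850 UMIs in the fibroblasts and 6683.5 in all other cells). A UMI of Col3a1 was found in 89.4% of the fibroblasts and in 12.4% of the Ptprc-positive cells. The corresponding shares were 71.9% and 6.84% for Timp1, 32.5% and 3.61% for Saa3, 26.3% and 0.622% for Prg4, 25% and 0.746% for Cthrc1 and 13.1% and 0.249% for Cxcl5. The shares were closer to each other for Lcn2 (14.4% and 4.23%), Gsn (49.4% and 19.3%), Ccl2 (28.8% and 16.3%) and Ccl7 (18.1% and 11.9%). Lcn2 and Ccl2 are also expressed by leukocytes.

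The fibroblasts of day 3 were next compared with the cells of day 0 that met the same rule. A difference between these days cannot be told apart from one between the libraries or between the kinds of cells that the rule took in. The 6 rule markers summed to 23401 CPM at day 0 and 9720 CPM at day 3. Of 11121 genes tested, 492 (4.42%) were past the fold with a higher level at day 3 and 497 (4.47%) with a lower level, and the median log2 ratio over all genes was -0.03. With all cells thinned to 1000 UMIs these counts were 210 and 244. Among the gene lists, 29 of 30 G2/M genes, 9 of 12 type I interferon genes, 11 of 17 matricellular genes and 5 of 8 acute-phase genes were higher at day 3, and 10 of 20 resting fibroblast genes were lower.

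Some summed levels rest on few cells. For each gene, the 3 fibroblasts of day 3 that held the most of its UMIs were left out as a check chosen after seeing the data. The check was run on the genes named by rule and on list members with at least 100 CPM in either group. Of 93 such genes past the fold higher than at day 0, 76 stayed past it, as did 16 of 28 against day 7 and 62 of 80 against day 14. Leaving cells out of day 3 alone pulls these ratios down by construction. With the 3 cells richest in the gene left out of both days compared, 88 of 93, 28 of 28 and 72 of 80 stayed past the fold. The 5 that did not against day 0 were Mmp3, Clu, Npm1, Gapdh and Rps18. Leaving cells out of both days can raise a ratio where few cells hold the UMIs of the other day. The log2 ratio of Saa3 to day 7, for example, went from 2.63 to 4.11. The genes had also been picked as higher at day 3, so these counts describe the dependence on few cells and are no independent support.

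The acute-phase and antimicrobial genes had 5 of 8 members past the fold higher and 1 lower, with a median log2 ratio of 2.23. Saa3 was at 0.451, 3460, 550 and 4.6 CPM in the fibroblasts of days 0, 3, 7 and 14. Day 3 thus had the highest level, day 7 the next, and days 0 and 14 were far lower. The day 0 level was 1 UMI, which gives a ratio of 7672 with a counting interval of 1377 to 303050, and that UMI came from a barcode that the day 3 library held with more UMIs. Lcn2, a protein that binds bacterial siderophores, was at 1.80, 665, 352 and 2.24 CPM at days 0, 3, 7 and 14, which was 369-fold higher at day 3 than at day 0 (144 to 1354). The 3 cells richest in Lcn2 held 56.4% of its day 3 UMIs, and without them it was at 302 CPM, 167-fold above day 0 and 0.858 of the day 7 level. At day 7, 3 cells held 87.0%, and with the 3 richest left out of both days Lcn2 was 6.16-fold higher at day 3 than at day 7. For Saa3 the corresponding share was 29.9% at day 3 and 76.5% at day 7. Hp, the haemoglobin-binding haptoglobin, was at 5.41, 218, 216 and 33.2 CPM. It was 40.3-fold higher than at day 0, or 60.5-fold without the shared barcodes, and its day 3 and day 7 levels were within counting error of each other. Without the 3 cells richest in Hp, it was at 134 CPM at day 3. Ptx3, a soluble pattern recognition protein, was at 5.86, 119, 36.8 and 45.1 CPM, 20.4-fold higher than at day 0 (11.8 to 38.4), and at 72.8 CPM without the 3 richest cells. Serpina3n, a serine protease inhibitor, was 3.27-fold higher (2.54 to 4.27), 2.32-fold without its 3 richest cells of day 3 and 3.26-fold with 3 cells left out of both days. With only the day 3 cells left out, Serpina3n was just short of the fold (log2 ratio 0.995 with 10 CPM added). Reads of the Saa and Serpina3 families can be shared by near-identical family members.

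**Figure D3:**
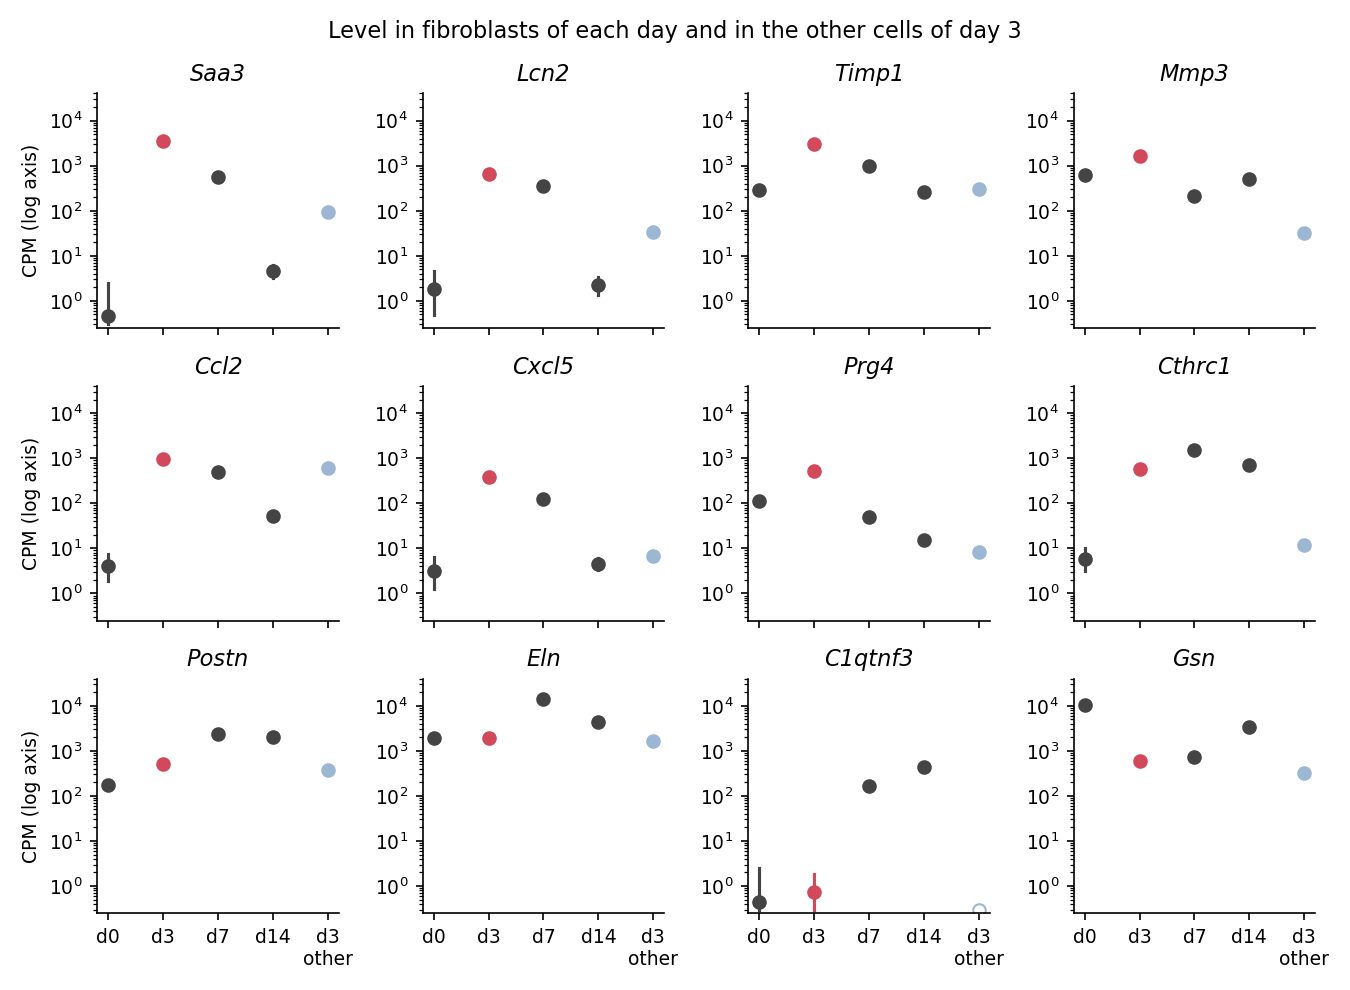
Level of 12 genes (CPM, log axis) in the fibroblasts of days 0, 3, 7 and 14 and in the other cells of day 3, with 95% counting intervals as lines. Open circles are genes with 0 UMIs, drawn at 0.3 CPM, and interval ends below 0.3 CPM are clipped there; the 4 points of Saa3 are 0.451, 3460, 550 and 4.6 CPM.

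The 250 bases before the transcription start of 4 of these response genes are shown because the genes were high at day 3 and each is a well-studied inducible gene (RefSeq, GRCm38.p6, sense strand of the gene, 5′ to 3′). Motifs in capitals were searched on both strands as letters only. They were the C/EBP motif TTGCNNAA, the AP-1 motif TGANTCA, the core TGCNCNC of the metal response element and the NF-kB motif. Among 27025 promoters of the same length, 9.55% held the C/EBP motif, 6.87% the AP-1 motif, 43.8% the metal response core and 3.75% the NF-kB motif. Saa3 (chr7:46715677-46715926, minus strand) has a C/EBP match on the opposite strand, 99 to 92 bases before the start, and Lcn2 (chr2:32387740-32387989, minus strand) has one at 216 to 209 bases before it. Cxcl1 (chr5:90890995-90891244, plus strand) has 2 overlapping NF-kB matches between 71 and 61 bases before the start. Mt2 (chr8:94172368-94172617, plus strand) has 5 metal response cores, an AP-1 match at 79 to 73 bases and a C/EBP match at 12 to 5 bases before the start. These matches describe letters and not binding sites.
Saa3: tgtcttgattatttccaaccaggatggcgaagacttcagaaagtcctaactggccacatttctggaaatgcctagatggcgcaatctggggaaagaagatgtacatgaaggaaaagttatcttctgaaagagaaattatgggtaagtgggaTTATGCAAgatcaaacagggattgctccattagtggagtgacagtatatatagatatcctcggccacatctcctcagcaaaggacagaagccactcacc
Lcn2: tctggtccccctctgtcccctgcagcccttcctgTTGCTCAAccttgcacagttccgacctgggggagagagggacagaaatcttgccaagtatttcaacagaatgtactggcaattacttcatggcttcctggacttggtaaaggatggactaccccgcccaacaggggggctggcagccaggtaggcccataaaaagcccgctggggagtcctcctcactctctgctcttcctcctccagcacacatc
Cxcl1: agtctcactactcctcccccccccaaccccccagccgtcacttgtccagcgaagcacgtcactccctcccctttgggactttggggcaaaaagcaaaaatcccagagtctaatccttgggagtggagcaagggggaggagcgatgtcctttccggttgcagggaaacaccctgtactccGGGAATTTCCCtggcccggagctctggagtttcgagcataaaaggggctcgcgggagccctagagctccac
Mt2: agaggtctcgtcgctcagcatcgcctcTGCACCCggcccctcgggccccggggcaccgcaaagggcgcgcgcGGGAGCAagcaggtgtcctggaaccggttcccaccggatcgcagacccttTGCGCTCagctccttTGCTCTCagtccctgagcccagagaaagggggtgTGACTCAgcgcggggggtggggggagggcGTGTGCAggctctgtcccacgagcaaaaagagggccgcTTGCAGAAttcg

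The 3 neutrophil-attracting chemokines that could be compared were all past the fold higher at day 3. Their median log2 ratio to day 0 was 4.71 from summed UMIs and 3.71 with cells weighted equally. It was 4.33 with cells weighted equally and the shared barcodes left out. Cxcl1 was at 11.7, 558, 368 and 150 CPM at days 0, 3, 7 and 14, which was 47.6-fold higher at day 3 than at day 0 (32.4 to 73.0). Cxcl5 was at 3.16, 383, 122 and 4.6 CPM, 121-fold higher than at day 0 and 283-fold without the shared barcodes, as 4 of the 7 UMIs of day 0 came from them. Cxcl2 was at 0, 94.3, 307 and 19.7 CPM. It was at least 69.7-fold higher than at day 0, taking 3 UMIs summed over the day 0 fibroblasts as the floor. The 3 cells richest in Cxcl2 held 62.7% of its day 3 UMIs, and it was at 36.5 CPM without them. Of these, Cxcl1 and Cxcl5 had their highest level at day 3, while that of Cxcl2 was at day 7.

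The monocyte-attracting list had 3 of 6 genes higher and 1 lower at day 3 than at day 0. Ccl2 was at 4.06, 952, 488 and 52.4 CPM at days 0, 3, 7 and 14. Its ratio to day 0 was 234 (123 to 513), and 2110 without the shared barcodes, where 1 UMI of the 9 remained at day 0. Ccl7 was at 2.25, 752, 260 and 51.6 CPM, a ratio of 334, and 1668 without the shared barcodes with 1 UMI remaining at day 0. Both had their highest level at day 3. Ccl8 was at 18.9, 197, 20.5 and 39.8 CPM, 10.4-fold higher than at day 0 (7.62 to 14.5). In contrast Ccl11, the eosinophil chemokine eotaxin, was at 150, 19.7, 22.5 and 115 CPM and so at 0.131 of its day 0 level (0.105 to 0.163), with 48.6% of its day 3 UMIs in 3 cells.

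Among the other chemokines, Cxcl12, which binds CXCR4 on leukocytes and progenitor cells, was at 386, 1432, 651 and 306 CPM, 3.71-fold higher at day 3 than at day 0. Cxcl10, an interferon-induced chemokine for T cells, had 0 UMIs at day 0 and 56.1 CPM at day 3, at least 41.4-fold higher, but 3 cells held 74.0% of these UMIs and it was at 15.0 CPM without them. The IL-6 and IL-1 families had 5 of 12 genes higher and 2 lower. Il6 was at 0.451 CPM (1 UMI) at day 0 and at 57.0, 33.2 and 31.7 CPM at days 3, 7 and 14, with 37.1 CPM at day 3 without its 3 richest cells. Il33, an alarmin stored in the nucleus, was at 183 and 175 CPM at days 0 and 3, a ratio of 0.957 (0.851 to 1.08).

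The TNFAIP, NF-kB and prostaglandin list had 6 of 14 genes higher and 0 lower, with a median log2 ratio of 0.64, and 3 of 14 higher with cells weighted equally (6 of 14 when the shared barcodes were also left out). Nfkbia, the NF-kB inhibitor that is itself induced by NF-kB, was at 147 CPM at day 0 and 362 CPM at day 3, 2.46-fold higher (2.19 to 2.78). Tnfaip6, which binds hyaluronan, was 5.37-fold higher. It was 2.63-fold higher without the 3 cells that held 53.9% of its day 3 UMIs and 3.66-fold with 3 left out of both days. Of the C/EBP factors, Cebpb was at 308 and 351 CPM and Cebpd at 1114 and 319 CPM, so that Cebpd was at 0.286 of its day 0 level (0.269 to 0.304).

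Type I interferon genes had 9 of 12 members higher and 0 lower, with a median log2 ratio of 1.22. Isg15, a ubiquitin-like modifier, was at 40.6, 426, 186 and 58.0 CPM at days 0, 3, 7 and 14, 10.5-fold higher than at day 0 (8.49 to 13.1). Ifit3, an inhibitor of translation of viral RNA, was 2.42-fold higher (1.63-fold without its 3 richest cells of day 3 and 3.33-fold with 3 left out of both days) and Rsad2, an antiviral enzyme, 6.72-fold (2.77 to 21.2).

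The fibrillar and associated collagens had 7 of 13 genes higher and 0 lower than at day 0. Col3a1 was at 3580, 16814, 24596 and 26763 CPM at days 0, 3, 7 and 14, which was 4.69-fold higher at day 3 than at day 0 (4.59 to 4.80). Col1a1 was at 5016, 12691, 17956 and 20496 CPM, 2.53-fold higher. The log2 ratio of Col1a1 was 1.34 from summed UMIs and 0.82 when each cell counted equally. Col5a3, a chain of collagen V, was 13.4-fold higher. Both Col3a1 and Col1a1 were higher again at days 7 and 14. Enzymes that modify and crosslink collagen had 7 of 18 genes higher and 0 lower, among them Loxl2 (8.58-fold), Plod2 (5.01-fold) and Lox (3.51-fold).

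Matricellular and wound matrix genes had 11 of 17 members higher and 1 lower, with a median log2 ratio of 1.46. Cthrc1 was at 5.86, 565, 1539 and 723 CPM at days 0, 3, 7 and 14, and its ratio to day 0 was 96.4, or 209 without the shared barcodes. Postn, the matrix protein periostin, was at 177, 505, 2389 and 2036 CPM, 2.85-fold higher than at day 0 (2.56 to 3.18), 2.06-fold without its 3 richest cells of day 3 and 2.85-fold again with 3 left out of both days. With only the day 3 cells left out, Postn was just short of the fold (log2 ratio 0.9998 with 10 CPM added). Fn1, fibronectin, was at 321, 1012, 2514 and 1955 CPM, 3.15-fold higher. These 3 genes were above day 0 at day 3 and higher still at day 7. Tnc, tenascin C, and Thbs1, thrombospondin 1, had 0 UMIs at day 0 and 40.0 and 42.0 CPM at day 3, at least 29.6-fold and 31.0-fold higher. The 3 richest cells held 53.2% of the Tnc and 41.6% of the Thbs1 UMIs of day 3. Without them Tnc was at 19.7 CPM and at least 14.6-fold higher than at day 0, and Thbs1 at 25.3 CPM and at least 18.7-fold higher. Spp1, osteopontin, was at 4.51, 255, 325 and 9.42 CPM, a ratio to day 0 of 56.5 and of 565 without the shared barcodes, where 1 of 10 UMIs remained at day 0. At day 3, 1 cell held 65.1% and 3 cells 83.2% of the Spp1 UMIs, and 33 of the 100 deeper fibroblasts had any. Without those 3 cells Spp1 was at 45.5 CPM, a ratio to day 0 of 10.1. Spp1 was at 921 CPM in the other cells of day 3.

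Proteases and their inhibitors were divided, with 4 of 16 genes higher and 4 lower. Timp1, an inhibitor of matrix metalloproteinases, was at 287, 3055, 997 and 264 CPM at days 0, 3, 7 and 14, 10.6-fold higher at day 3 than at day 0 (9.82 to 11.5). Its relatives went the other way. Timp2 was at 3120, 899, 1367 and 1962 CPM and Timp3 at 2785, 528, 1239 and 847 CPM, which put them at 0.288 and 0.190 of their day 0 levels. Mmp3 was at 613, 1603, 209 and 507 CPM, 2.61-fold higher than at day 0 (2.47 to 2.77). However, 3 cells held 57.6% of the Mmp3 UMIs of day 3, and without them Mmp3 was at 706 CPM, 1.15-fold above day 0. With the 3 richest cells left out of both days it was 1.84-fold higher, and it was past the fold under neither setting. After thinning to 1000 UMIs, Mmp3 was found in 25% of the day 3 and 18.9% of the day 0 fibroblasts, with overlapping intervals (18.5 to 32.4 and 13.8 to 24.8). Mmp14, a membrane-bound collagenase, was 4.39-fold higher. Among the plasminogen and coagulation genes, Plaur, the urokinase receptor, was 7.80-fold higher, whereas F3, tissue factor, was at 0.168 of its day 0 level.

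Genes of resting adventitial fibroblasts had 10 of 20 members past the fold lower and 1 higher, with a median log2 ratio of -0.98. When each cell counted equally these numbers were 6 lower and 2 higher, with a median of -0.35, or of -0.52 when the shared barcodes were also left out. Gsn, the actin-severing gelsolin, was at 10476, 591, 720 and 3461 CPM at days 0, 3, 7 and 14, and so at 0.0564 of its day 0 level (0.0543 to 0.0585). Pi16, a marker of a progenitor-like adventitial fibroblast, was at 3026, 384, 679 and 1361 CPM, and thus at 0.127 of day 0. Clec3b, tetranectin, was at 0.138 and Smoc2, a calcium-binding matrix protein, at 0.208 of the day 0 level. The log2 ratio of Gsn was -4.13 from summed UMIs, -2.02 with cells weighted equally and -3.23 with cells weighted equally and the shared barcodes left out. For Pi16 these were -2.94, -1.07 and -1.85. The equal-weight mean of Gsn at day 3 was 2402 CPM with the 17 shared barcodes and 1064 CPM without them, so that much of its smaller equal-weight ratio rests on these barcodes. Both genes were at their lowest in the deepest cells, as described below. Ly6a (Sca-1), by contrast, was 2.09-fold higher at day 3. Reads of Ly6a may be shared with other genes of the Ly6 family.

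Other named genes were also lower at day 3 than at day 0. Apoe, apolipoprotein E, was at 2728, 242, 417 and 2352 CPM at days 0, 3, 7 and 14. Igfbp5, an IGF-binding protein, was at 1491, 85.3, 189 and 1072 CPM, and 4 of 5 IGF-binding protein genes were past the fold lower from summed UMIs and 1 of 5 with cells weighted equally. Fmod, the collagen-binding fibromodulin, was at 356, 11.5, 108 and 196 CPM. Each of these 3 genes was lowest at day 3 from summed UMIs, while for Igfbp5 the log2 ratio to day 7 turned to 0.13 with cells weighted equally and 0.30 with thinning. Without the shared barcodes it was -1.21 and -1.04 under these settings. The median log2 ratio of the IGF-binding protein list to day 7 was -0.83 from summed UMIs and 0.16 with cells weighted equally. It was -0.44 with cells weighted equally and the shared barcodes left out. Without the 3 cells richest in it, Igfbp5 was at 38.7 CPM at day 3. C7, a component of the complement pore, was at 227 and 4.15 CPM at days 0 and 3, and Abca8a, a lipid transporter, at 714 and 26.9 CPM. The elastic fibre list had 5 of 14 genes lower and 1 higher, with Mfap4 at 0.118 and Fbln5 at 0.204 of day 0, while Eln, elastin itself, was at 1940 and 1914 CPM. The complement list had 3 of 11 genes lower and 1 higher, or 1 lower and 0 higher with cells weighted equally (2 lower without the shared barcodes).

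Genes of metal and haem handling, movement and energy metabolism were higher in part. Mt2, a metallothionein, was at 460, 1827, 595 and 165 CPM at days 0, 3, 7 and 14, 3.97-fold higher than at day 0 (3.72 to 4.24), and its neighbour in the family, Mt1, was 1.75-fold higher. Reads of the metallothioneins may be shared between them. Slc39a14, an importer of zinc and iron, was 12.6-fold and Hmox1, which degrades haem, 4.80-fold higher. The latter was 2.07-fold higher without the 3 cells that held 58.7% of its day 3 UMIs and 2.82-fold with 3 left out of both days. With only the day 3 cells left out, Hmox1 was not past the fold (log2 ratio 0.82 with 10 CPM added). The cytoskeleton and migration list had 11 of 28 genes higher and 1 lower, among them Fscn1 (16.1-fold), an actin-bundling protein, Cd44 (6.99-fold, or 4.41-fold without its 3 richest cells of day 3), the hyaluronan receptor, and Itga5 (6.12-fold), a chain of the fibronectin receptor. Of the glycolysis genes 7 of 18 were higher and 0 lower, with Eno1 at 3.69-fold and Ldha at 2.97-fold, and 4 of 18 with cells weighted equally. Plac8, which also stands in the monocyte marker list, was at 25.7, 316, 164 and 159 CPM, and 59 of the 100 fibroblasts with at least 5000 UMIs had a UMI of it.

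**Figure D4:**
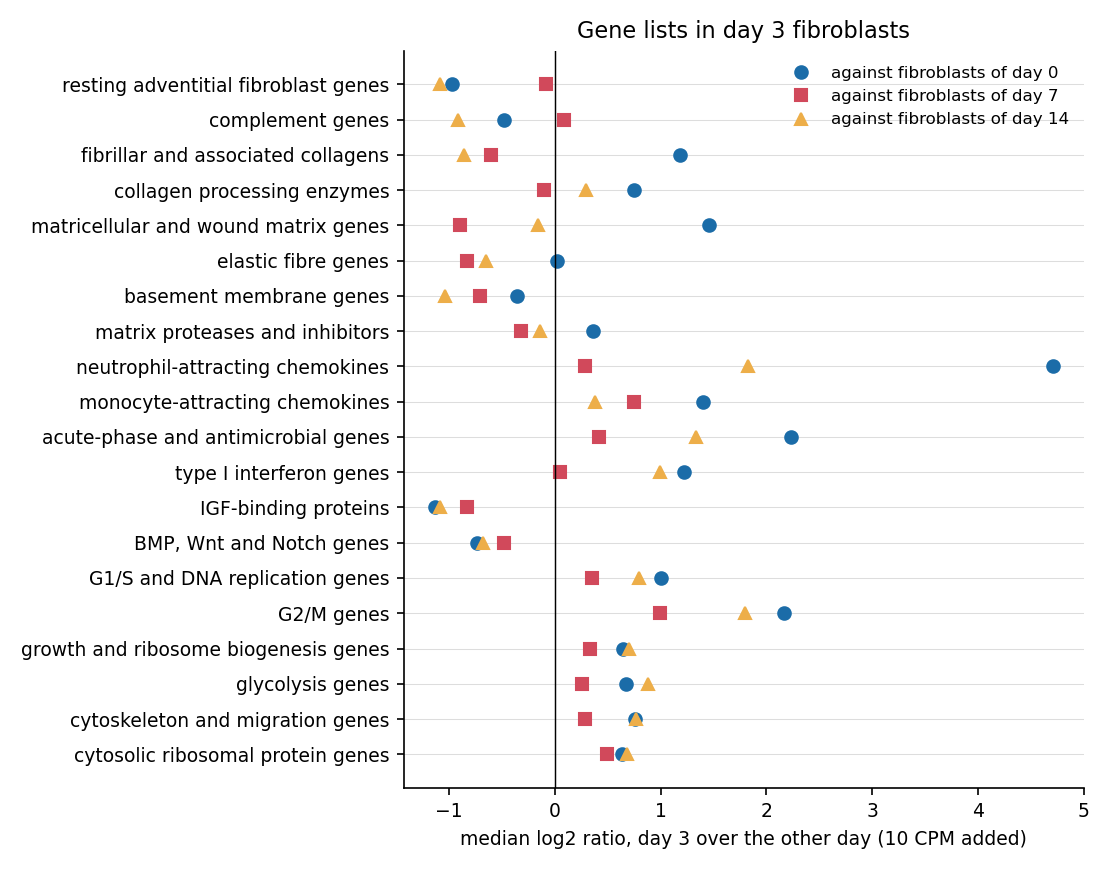
Median log2 ratio of each gene list in the fibroblasts of day 3 over those of days 0, 7 and 14 (10 CPM added to each level, summed UMIs). The G2/M list lies at 2.17, 0.99 and 1.79, and the matricellular list at 1.46 against day 0 and -0.89 against day 7.

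Cell cycle genes were higher than at day 0. Of the G2/M genes, which act in mitosis, 29 of 30 were past the fold higher, with a median log2 ratio of 2.17, and of the G1/S and DNA replication genes 13 of 25. With cells weighted equally these counts were 24 and 7, or 28 and 10 without the shared barcodes. Mki67, a proliferation antigen, was at 1.35, 83.8, 35.2 and 11.2 CPM at days 0, 3, 7 and 14. Top2a, a topoisomerase needed in mitosis, was at 1.80, 104, 47.1 and 16.5 CPM. Without the 3 richest cells of each, Mki67 was at 46.8 CPM and Top2a at 60.5 CPM at day 3. Without the shared barcodes both genes had 0 UMIs at day 0. A cell was counted as cycling when it had at least 3 UMIs of the G1/S and G2/M lists after thinning to 1000 UMIs. By this measure 27 of 160 fibroblasts were cycling at day 3 (16.9%, 11.4 to 23.6). Of these, 11 belonged to cluster 4, described below, which is led by the macrophage and platelet genes Pf4 and Lyz2, and without it 16 of 138 were cycling (11.6%, 6.77 to 18.1). The counts were 5 of 212 at day 0 (2.36%, 0.770 to 5.42), 27 of 225 at day 7 (12.0%, 8.06 to 17) and 3 of 492 at day 14 (0.610%, 0.126 to 1.77). Without thinning, 29, 4, 22 and 3 cells of days 3, 0, 7 and 14 had at least 0.3% of their UMIs in these genes. The intervals of days 3 and 7 overlapped, and those of days 0 and 14 lay below both. Of the 142 neutrophils of the day 3 library, which should not cycle, 0 were counted, which allows a share of up to 2.11% at a floor of 3 counts (the exact upper end is 2.56%). Among the 64 muscle-gene cells of day 3 the share was 28.1% (17.6 to 40.8).

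The fibroblasts of day 7 served to compare day 3 with the next time point. In the study, a cluster first labelled as fibroblasts emerged at day 7 and was then assigned to SEM (stem cell, endothelial cell, monocyte) cells. The study proposes that these may be modulated smooth muscle cells. Whether the rule took in such cells was not tested. Of 11711 genes tested, 96 (0.82%) were past the fold with a higher level at day 3 and 245 (2.09%) with a lower level. When each cell counted equally these counts were 191 and 940. Prg4, Ccl8, Mmp3 and Saa3 were among the genes higher at day 3, and 8 of 17 matricellular and 7 of 14 elastic fibre genes were higher at day 7.

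Prg4 was at 111, 514, 50.3 and 15.6 CPM at days 0, 3, 7 and 14, and so 10.2-fold higher at day 3 than at day 7 (8.98 to 11.7). Ccl8 was 9.59-fold, Mmp3 7.65-fold (7.18 to 8.17), Serpinb1a, an inhibitor of neutrophil proteases, 6.32-fold and Saa3 6.29-fold (6.04 to 6.55) higher. Without the 3 day 3 cells richest in each gene, Mmp3 was 3.37-fold and Saa3 4.57-fold higher than at day 7, and Mmp3 1.39-fold higher than at day 14. With 3 cells left out of both days these ratios were 6.17, 18.4 and 1.67. Efemp1, a fibulin, was 3.86-fold and Timp1 3.06-fold higher. Lcn2 and Ccl2, with ratios of 1.89 and 1.95, were not past the fold. Of the acute-phase list 2 of 9 genes were higher and 0 lower (4 higher and 1 lower with cells weighted equally), and of the haem and metal list 3 of 16 were higher and 0 lower, with Mt2 at 3.07-fold and Mt1 at 2.90-fold.

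The matricellular list had 8 of 17 genes past the fold lower than at day 7 and 0 higher, with a median log2 ratio of -0.89, and the elastic fibre list 7 of 14 lower and 1 higher. Eln was at 1914 CPM at day 3 and 14160 CPM at day 7, and so at 0.135 of the day 7 level (0.132 to 0.138). Postn was at 0.211, Tnc at 0.190 and Thbs1 at 0.0940 of the day 7 level. Without the 3 day 3 cells richest in each gene, Tnc was at 0.0939 and Thbs1 at 0.0566 of that level. With 3 cells left out of both days they were at 0.114 and 0.0926. C1qtnf3, a secreted protein of the adiponectin family, had 4 UMIs at day 3 (0.721 CPM) and was at 162 CPM at day 7 and 446 CPM at day 14. Ptn, the growth factor pleiotrophin, was at 0, 3.79, 204 and 95.8 CPM at days 0, 3, 7 and 14. Aspn, asporin, was at 202, 135, 912 and 1541 CPM, and Col8a1, a collagen of vessel walls, at 5.41, 51.7, 374 and 272 CPM. At day 0 C1qtnf3 had 1 UMI and Ptn 0. Aspn was not past the fold between days 0 and 3, whereas Col8a1 was 9.56-fold higher at day 3 than at day 0.

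Not all chemokines and interferon genes were higher at day 3 than at day 7. Cxcl2 was at 0.307 and Cxcl10 at 0.211 of the day 7 level, and Rsad2 at 0.114. With the deepest 10% of the cells of each group left out, the log2 ratios of Cxcl10 and Rsad2 turned to 0.75 and 0.76, and for Cxcl10, 3 cells held 74.0% of the UMIs at day 3 and 89.1% at day 7. For Cxcl2 these shares were 62.7% and 62.5%, and with the 3 richest cells left out of both days Cxcl2 was at 0.30 and Cxcl10 at 0.499 of the day 7 level. The immediate early list, which holds genes that respond to tissue digestion as well, had 6 of 20 genes lower than at day 7 and 0 higher, and 16 of 20 lower when each cell counted equally. Fos was at 601, 450, 1037 and 2081 CPM at days 0, 3, 7 and 14 and Egr1 at 613, 517, 1112 and 1558 CPM. The part of the digestion in the differences between days was not tested. The G2/M genes had 13 of 30 past the fold higher at day 3 than at day 7 from summed UMIs and 1 of 30 with cells weighted equally (4 of 30 without the shared barcodes).

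Against day 14, 336 of 12110 genes (2.77%) were past the fold with a higher level at day 3 and 427 (3.53%) with a lower level. The acute-phase list had 6 of 9 genes higher and 0 lower, the neutrophil chemokines 3 of 3 higher, the G2/M genes 29 of 30 higher and the type I interferon genes 6 of 12 higher. Saa3 was 752-fold (554 to 1049) and Lcn2 296-fold (192 to 486) higher than at day 14, and without the shared barcodes Lcn2 was 850-fold higher. Without the 3 cells richest in Lcn2 it was 135-fold higher. Cxcl5 was 83.3-fold, Prg4 33.0-fold, Spp1 27.1-fold, Ccl2 18.2-fold, Timp1 11.6-fold and Mt2 11.1-fold higher. The log2 ratio of Ccl2 with 10 CPM added was 3.95. It was 3.45 without its 3 richest cells of day 3 and 4.99 with 3 left out of both days. The ratio of Spp1 rests on the few cells described above and was 4.83 without the 3 richest of day 3. At day 14, 3 cells held 83.3% of its UMIs, and with 3 left out of both days the ratio was 28.7. S100a4, a calcium-binding protein of motile cells, was at 384, 1205, 570 and 122 CPM at days 0, 3, 7 and 14, and it was at 2853 CPM in the other cells of day 3.

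Several named genes were lower at day 3 than at day 14. Col2a1, the collagen of cartilage, had 0 UMIs at days 0 and 3 and was at 200 CPM at day 14. Thbs4, thrombospondin 4, had 1 UMI at day 3 and was at 181 CPM at day 14, a ratio of 0.000994 with a counting interval of 2.51e-05 to 0.00554. Cilp, a cartilage matrix protein, was at 48.2, 8.29, 53.3 and 286 CPM, and Gpc3, a glypican, at 51.4, 3.07, 16.3 and 235 CPM at days 0, 3, 7 and 14. Mest, an imprinted gene of growing mesenchyme, was at 4.96, 1.98, 21.7 and 128 CPM. Mdk, the growth factor midkine, was at 233, 18.2, 164 and 446 CPM. The basement membrane list had 8 of 12 genes lower and 0 higher than at day 14, and the resting list 11 of 21 lower and 1 higher, or 6 lower and 2 higher with cells weighted equally (8 and 1 without the shared barcodes).

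The 160 fibroblasts were not uniform. Leiden clustering on their 2000 most variable genes gave 4 clusters of 67, 36, 35 and 22 cells, and the genes that lead them are given as a description. Cluster 1 was led by Eln (8089 CPM against 376 CPM in the remaining fibroblasts), Fmo2, Comp, Clec3b, Mfap4, Timp3 and Pi16, matrix and resting genes. Cluster 2 was led by Hist1h2ap, Ube2c, Top2a, Pclaf and Mki67, genes of the cell cycle, and 15 of its 36 cells (41.7%) were counted as cycling. Cluster 3 was led by Saa3 (8600 CPM against 409 CPM), Lcn2 (1568 CPM against 129 CPM), Hp, Cxcl1, Mmp3, Ccl7, Mt2 and Il6. Cluster 4 was led by Pf4 (433 CPM against 4 CPM) and Lyz2 (912 CPM against 20 CPM), genes of macrophages and platelets, and stays unnamed. Its 22 cells had a median of 2130 UMIs and a median mitochondrial share of 0.163%, against 2.62% over all 160 fibroblasts, and 11 of the 22 (50%) were counted as cycling. Of the 27 cycling cells, 0 were in cluster 1 and 1 in cluster 3. Leaving cluster 4 out kept 160 of the 166 named genes that were past the fold against day 0 past it. This cluster held only 1.17% of the UMIs of the fibroblasts, so summed levels could move little without it.

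The clusters also differed in depth. Median UMIs were 7601 in cluster 1, 58061 in cluster 2 and 58550 in cluster 3, and 15 cells of cluster 1 had a barcode that was deeper in the day 0 library. Among the 100 fibroblasts with at least 5000 UMIs, 37, 28 and 33 cells belonged to clusters 1, 2 and 3. The median level of Saa3 per cell was 84.7, 0 and 6863 CPM in these clusters, with highest cells of 6726, 5985 and 41604 CPM, and 14, 16 and 4 cells had 0. The median of Eln per cell was 6269, 71.7 and 144 CPM, and that of Gsn 1351, 235 and 290 CPM. Ccl2 had medians of 0, 105 and 997 CPM, and Mmp3 of 108, 20.3 and 480 CPM with a highest cell of 30052 CPM.

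Saa3 varied widely between cells. Over the 100 deeper cells its quartiles were 0 and 3684 CPM with a median of 138 CPM, and 64 of the 100 had a UMI. Timp1 was found in 99 of the 100 cells with quartiles of 1056 and 3067 CPM, and Col3a1 in 99 with quartiles of 10421 and 23733 CPM. Lcn2 was found in 60, Ccl2 in 63, Cxcl1 in 65 and Cxcl5 in 42 of the 100. Saa3 went with Lcn2 across these cells (Spearman's rho 0.599) and less with Mmp3 (0.341) and Ccl2 (0.257), while its rho with Eln was 0.00724 and with the UMIs per cell 0.135. These values are descriptions over cells that share 1 library and differ in depth. For Gsn and Eln the rho with UMIs per cell was -0.644 and -0.556.

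**Figure D5:**
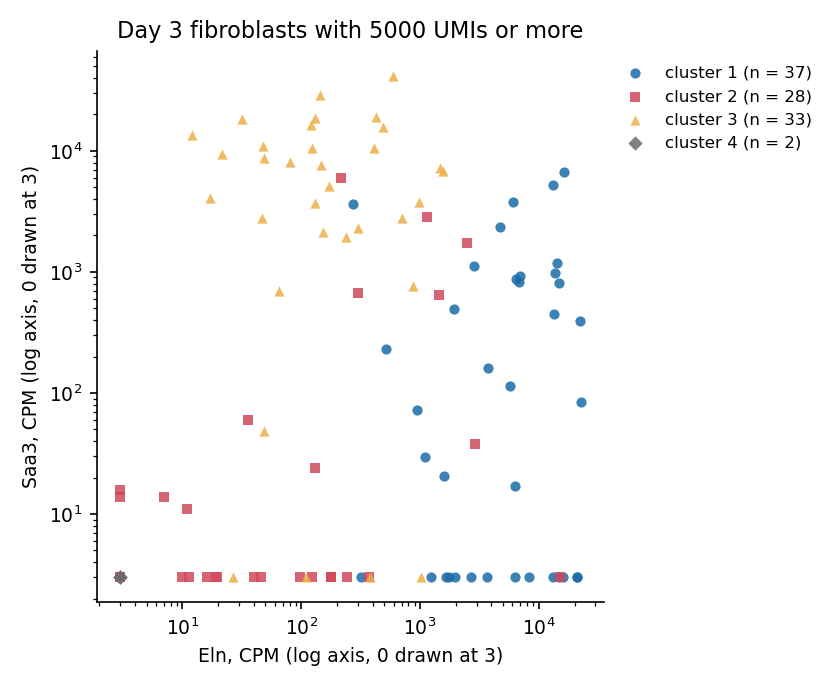
Each point is 1 of the 100 day 3 fibroblasts with at least 5000 UMIs, with the level of Eln on the horizontal and of Saa3 on the vertical axis (CPM, log axes, 0 drawn at 3), marked by cluster. Cells of cluster 3 lie high in Saa3 (median 6863 CPM), and cells of cluster 1 lie far to the right in Eln (median 6269 CPM).

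The fibroblasts were also divided by depth alone. Groups of 39, 21, 18, 32 and 50 cells had at least 1000, 2000, 5000, 20000 and 50000 UMIs, each up to the next bound. Summed within each group, Gsn was at 5677, 1540, 2682, 942 and 305 CPM and Pi16 at 2143, 1492, 1374, 708 and 203 CPM. The shallowest group holds the 17 barcodes that were deeper in day 0, and without them 37 of its 294 Gsn UMIs and 17 of its 111 Pi16 UMIs remained, which put Gsn at 1123 CPM and Pi16 at 516 CPM in its other 22 cells. The high resting-gene levels of the shallowest group thus rest on the shared barcodes, while both genes were lowest in the deepest group with or without them. Eln was at 1815, 2391, 6423, 5410 and 694 CPM. Saa3 was at 714, 594, 1155, 3092 and 3761 CPM, or 1123 CPM in the shallowest group without the shared barcodes. These are summed levels, and the part of depth in them was not tested. Timp1 lay between 1730 and 3803 CPM in all 5 groups.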

How the data were processed

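The authors deposited raw UMI counts per gene and barcode, made with Cell Ranger 3.0.2 per the file headers, for 4 libraries that list the same 31053 genes. The methods name another Cell Ranger version, and a usable name of the mouse build was not given in the sources used here, so file genes carry no coordinates. Columns not mapped to a sample numbered 0. Library totals were 2672722, 18989081, 27973418 and 13329564 UMIs at days 0, 3, 7 and 14.

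From these counts, UMIs were summed over the fibroblasts of each library and over the other cells of day 3 and expressed per 1000000 UMIs (CPM). Ratios carry exact conditional binomial 95% intervals. Genes needed at least 20 UMIs over both groups, and 10 CPM was added before taking log2. With 1 library per time point there was no test. Named genes were up to 25 highest against the other cells, up to 15 highest and 15 lowest against each other day (at least 100 CPM in the higher group), the 10 leading genes of each cluster, and the members of 41 gene lists. Thbs1, Col2a1 and similar genes at 0 UMIs were compared with a floor of 3 UMIs summed over the group. The members and lists were chosen with earlier results of these data known. Doublets were kept, and leaving out the 23 barcodes with the highest Scrublet scores (0.8% per 1000 barcodes) removed 4 fibroblasts. Cells were clustered from counts scaled to 10000 per cell with 2000 variable genes, 20 principal components, 15 neighbours and Leiden resolution 0.5. The fold and interval script was tested on simulated data. Python 3.11.15, numpy 2.4.6, scipy 1.17.1, pandas 2.3.3, scanpy 1.11.5, leidenalg 0.10.2, igraph 0.11.9, scikit-learn 1.9.0 and matplotlib 3.10.9 were used. Promoters came from RefSeq tables (GRCm38.p6). The entries for Ccl2, Ccl7 and Cxcl5 were not used here.

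The alternatives were 1 or 50 CPM added, other UMI minimums, looser or stricter cell and marker thresholds, equal weight for each cell, thinning to 1000 UMIs, and leaving out doublets, shallow cells, the deepest 10% of cells or members with immune markers. Leaving out shared barcodes (alone, with equal weight and with thinning), cluster 4, and the 3 fibroblasts richest in a gene (of day 3 or of both days) were chosen after seeing the data.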

Additional observations from a re-analysis of the deposited data

How the results depend on the processing

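No paired analysis was possible because each time point had 1 library. Replicates were not left out for the same reason, and day and library cannot be told apart. The check that left out the 3 cells richest in a gene is not included here. It was counted only for genes higher at day 3 than at another day. Under the other alternatives, the genes named as past the fold from summed UMIs were followed for their direction. Adding 1 or 50 CPM to both levels or changing the UMI minimum cannot turn a ratio, so these settings do not test direction. Leaving out shared barcodes or cluster 4 could move summed levels little, as they held 0.339% and 1.17% of the UMIs of the day 3 fibroblasts. All 166 against day 0, 172 against day 14 and 216 against the other cells kept their direction except under equal weight for each cell and thinning. These settings turned 1 and 4 of 166 against day 0 and 5 of 216 each against the other cells. With the shared barcodes also left out, equal weight turned 0 of 166, 0 of 93, 1 of 172 and 5 of 216 against days 0, 7 and 14 and the other cells, and thinning 1, 2, 2 and 5. Against day 7, 3 of 93 turned with the deepest 10% of cells left out, 3 with equal weight, 5 with thinning and 1 without doublets. Depth sets the precision: genes with fewer than 20 UMIs over both groups were not compared.

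Counts of genes past the fold followed the amount added. With 1 CPM added, 1177 were higher and 1075 lower than at day 0, 286 and 765 than at day 7, 842 and 1210 than at day 14, and 1899 and 2635 than in the other cells. With 50 CPM added these were 149 and 194, 27 and 71, 106 and 155, and 373 and 506. Thinned cells gave 210 higher and 244 lower than at day 0, and 182 higher than at day 7. Equal weight for each cell gave 191 higher and 940 lower than at day 7. Without the shared barcodes as well, thinning gave 246 higher and 309 lower than at day 0 and 191 higher than at day 7, and equal weight 186 higher and 888 lower than at day 7. The share of fibroblasts was 17.4% with at least 200 genes, 500 UMIs and at most 20% mitochondrial UMIs, and 8.80% without members under 5000 UMIs.

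Log2 ratios that turned were, under thinning, against day 0, those of Cdh11 (-1.27), Dnajb1 (-0.0823), Igfbp6 (0.085) and Myl9 (0.20). Against day 7 they were those of Cst3 (0.0804), Gpc3 (0.0496), Igfbp5 (0.30), Plaur (-0.69) and Txnip (0.21), and against the other cells Gm12840 (-0.66), Hp (-1.24), Lmcd1 (0.90), Mgp (1.09) and Tpm2 (0.18). With equal weight for each cell they were those of Dnajb1 against day 0 (-0.0152), of Cst3 (0.0093), Igfbp5 (0.13) and Plaur (-0.0276) against day 7, and of Gm12840 (-0.44), Hp (-0.72), Lmcd1 (0.49), Mgp (1.02) and Tpm2 (0.0314) against the other cells. With the deepest 10% of cells left out, Cxcl10 (0.75), Rsad2 (0.76) and Ube2c (-0.36) turned against day 7, and Rsad2 (0.50) did so without doublets. Without the shared barcodes, those that turned under thinning were Col4a2 against days 0 (0.0113), 7 (0.08) and 14 (0.0372), Pdgfa against day 7 (0.11), Thbs1 against day 14 (0.63), and Gm12840 (-0.43), Hp (-1.11), Lmcd1 (0.87), Mgp (0.86) and Tpm2 (0.10) against the other cells. Under equal weight they were Thbs1 against day 14 (0.15), and Gm12840 (-0.29), Hp (-0.57), Lmcd1 (0.60), Mgp (0.88) and Tpm2 (0.16) against the other cells. Under equal weight, 0 turns against days 0 and 7 remained without the shared barcodes. The cause of the other turns was not tested.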

Other observations

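Of 25 cytosolic ribosomal protein genes, 24, 25 and 24 had a log2 ratio above 0 against days 0, 7 and 14, with medians of 0.64, 0.50 and 0.68, although only 2, 0 and 3 were past the fold. Genes of ribosome biogenesis had medians of 0.64, 0.34 and 0.71, with 16, 18 and 19 of 19 above 0. Cholesterol synthesis genes had 17, 17 and 18 of 18 above 0, with medians of 0.37, 0.36 and 0.54. Genes of the respiratory chain had medians of 0.16, 0.29 and 0.46. The median over all genes was -0.03 against days 0 and 7 and -0.04 against day 14. With equal weight for each cell the ribosomal medians were 0.58, 0.65 and 0.65, those of ribosome biogenesis 0.36, 0.08 and 0.49, and those of cholesterol synthesis 0.42, 0.05 and 0.17.

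Against days 0, 7 and 14 the median log2 ratios of the BMP, Wnt and Notch genes were -0.73, -0.48 and -0.67, with 6 of 21, 6 of 23 and 4 of 25 above 0. Past the fold were 9 lower and 2 higher against day 0, 3 and 1 against day 7, and 7 and 1 against day 14. With equal weight for each cell 4 were lower and 3 higher than at day 0, or 7 and 3 without the shared barcodes. TGF-beta and activin genes had medians of -0.15, -0.35 and 0.20, with 8, 4 and 12 of 23 above 0. Sfrp4, a secreted Wnt antagonist, was at 315, 700, 626 and 620 CPM at days 0, 3, 7 and 14. Runx1, a transcription factor, was at 32.0, 118, 187 and 107 CPM.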
